A study of Homo sapiens with 8 samples.

Results

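The metal-handling genes MT1E, MT1F, MT1G, MT1M, MT1X, MT2A, SLC30A1 and MTF1 were chosen by symbol and matched to the gene identifiers of the count tables. All 8 were found among the 64253 genes counted, and 7 held enough counts to be tested. RNA-seq libraries came from 4 groups of human colon cancer cells with 2 replicates each. HCT-8, a 5-FU-sensitive line, and HCT-8/FU, its 5-FU-resistant counterpart, were grown in unconditioned medium. CM denotes medium collected from a culture after 48 h. HCT-8 cells given CM of HCT-8 form the sensitive-CM group, and those given CM of HCT-8/FU form the resistant-CM group. Per the labels all 4 groups were kept in Ham's F12 with serum and antibiotics, whereas the study's methods name an RPMI medium for HCT-8. Which of them was used is unclear, and the labels give no 5-FU exposure for any of them. HCT-8/FU is a single resistant line, so what belongs to resistance and what belongs to that line cannot be told apart. The labels do not say whether replicates came from separate cultures, and p-values then measure only the spread between these libraries.

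Metallothioneins are small cysteine-rich proteins that bind zinc, copper and cadmium in the cytosol, and intestinal epithelium uses them to buffer dietary zinc. SLC30A1, also called ZnT1, carries zinc out of the cell across the plasma membrane. MTF1 is the zinc-sensing transcription factor that binds metal response elements and turns on metallothionein genes and SLC30A1 when free zinc rises.

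SLC30A1 mRNA was 1.77-fold higher in HCT-8/FU than in HCT-8, and 1.79-fold higher in the resistant-CM group than in the sensitive-CM group. By edgeR's quasi-likelihood test 0 of the 5 tested metallothioneins met the study's threshold for differentially expressed (DE) genes in either comparison, with 2 and 1 at an unadjusted p under 0.05, and DESeq2 called 0 as well. MTF1 did not meet it either. A gene was DE at an FDR of at most 0.05 with a change of at least 1.5-fold, which is 0.58 on the log2 scale. SLC30A1 was DE and higher in both comparisons, as were 13.2% and 7.97% of all tested genes. Counts followed GC content differently in different groups, and with a correction for that the SLC30A1 differences were smaller and fell short of 1.5-fold. MT1E was then the DE member in HCT-8/FU against HCT-8, at a log2 fold change of 0.59 (FDR = 0.0027). Without the correction MT1E was at 0.36, under the fold threshold, and ran from 0.18 to 0.59 when single libraries were left out. With the correction MT1G passed the FDR in the same comparison at 0.55 (FDR = 0.031), and 0 members were DE in resistant-CM against sensitive-CM. In bulk RNA, a change in every cell and a change in the share of cells that express a gene cannot be told apart.

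The metallothionein members lie together on chromosome 16 of GRCh38, over 75.6 kb from 56608584 to 56684196. In order of position they are MT2A, MT1E, MT1M, MT1F, MT1G and MT1X, and MT1G alone is on the minus strand. SLC30A1 is on the minus strand of chromosome 1 at 211571568 to 211579161, and MTF1 is on the same strand at 37809574 to 37859592. The exons of the metallothioneins have a GC content between 53.7% and 58.7%, against 40.7% for SLC30A1 and 46.6% for MTF1. RefSeq promoters, which run from 250 bases before to 50 bases after the transcription start on GRCh38.p14, were at hand for 4 members. They were searched on both strands for the metal response element core, written TGCACNC or TGCGCNC, where N is any base.

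The 3 promoters that held matches are shown because MTF1 is known to act through this core. Capitals mark each match as it reads on the gene's own strand, so a match on the opposite strand appears as its reverse complement. The windows are chr16:56608334-56608633 on the plus strand for MT2A, chr16:56682220-56682519 on the plus strand for MT1X, and chr1:211579112-211579411 on the minus strand for SLC30A1.
MT2A: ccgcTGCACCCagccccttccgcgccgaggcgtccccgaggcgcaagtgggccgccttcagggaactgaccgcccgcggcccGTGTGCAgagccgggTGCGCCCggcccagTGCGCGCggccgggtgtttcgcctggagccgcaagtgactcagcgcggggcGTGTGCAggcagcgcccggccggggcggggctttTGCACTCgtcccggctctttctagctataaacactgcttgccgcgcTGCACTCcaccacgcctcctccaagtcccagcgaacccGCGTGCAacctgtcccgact
MT1X: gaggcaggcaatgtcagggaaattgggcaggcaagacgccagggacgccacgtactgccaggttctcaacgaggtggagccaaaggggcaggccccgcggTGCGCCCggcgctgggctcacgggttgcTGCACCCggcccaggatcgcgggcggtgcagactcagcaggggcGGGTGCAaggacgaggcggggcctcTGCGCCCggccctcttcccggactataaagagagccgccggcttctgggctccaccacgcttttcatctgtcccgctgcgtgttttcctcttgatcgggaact
SLC30A1: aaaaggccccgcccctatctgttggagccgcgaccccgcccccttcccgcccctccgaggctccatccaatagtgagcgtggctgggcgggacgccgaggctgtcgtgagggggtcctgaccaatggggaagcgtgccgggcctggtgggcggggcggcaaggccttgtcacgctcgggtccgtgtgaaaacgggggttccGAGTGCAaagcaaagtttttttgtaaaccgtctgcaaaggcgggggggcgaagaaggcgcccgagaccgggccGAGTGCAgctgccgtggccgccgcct
MT2A held 8 matches, MT1X held 4 and SLC30A1 held 2, and no 2 of these overlapped. The MTF1 promoter held 0. Of 35116 promoters of the same length, 29.6% held at least 1 match, 8.60% at least 2, 0.601% at least 4 and 0.0199% at least 8. A match to these letters is a description of the sequence and not a measured binding site.

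Genic counts ran from 5804124 to 34881349 per library. In 3 libraries, HCT-8 replicate 1, HCT-8/FU replicate 2 and sensitive-CM replicate 1, between 19.96% and 29.6% of the records were not aligned, against 3.58% to 4.43% in the other 5. These 3 were also the shallowest, and values without them are given where they change a result. Leaving them out leaves a single library in HCT-8, HCT-8/FU and sensitive-CM. The spread in that fit rests on the resistant-CM libraries alone, so only sizes of change are given from it. Libraries differed in how counts followed GC content, with a Spearman rho across 19857 genes from -0.536 in HCT-8/FU replicate 1 to 0.587 in sensitive-CM replicate 2. All 4 libraries of the HCT-8/FU and resistant-CM groups had a rho below 0, and all 4 others had one above 0. With a GC and length correction, the DE genes of HCT-8/FU against HCT-8 went from 2677 higher and 1648 lower to 1481 higher and 1615 lower. Those of resistant-CM against sensitive-CM went from 1619 and 259 to 550 and 432. With sensitive-CM replicate 2 as the reference library of the scaling, the first of these comparisons held 3166 higher and 1192 lower. All 11 colon epithelium markers were tested, and their summed level was between 9677 and 11997 CPM in every library, of which KRT8 alone made up 4720 to 5869. Of the 11, 3 were DE and higher in HCT-8/FU against HCT-8 (VIL1 at 0.96, CDX1 at 0.83 and EPCAM at 0.61 on the log2 scale). Against HCT-8, 3 were DE and higher in sensitive-CM (CDX1 at 1.097, VIL1 at 0.80 and CDX2 at 0.68) and 2 in resistant-CM (CDX1 at 1.07 and VIL1 at 0.68). Of all tested genes, 13.2% were DE and higher in HCT-8/FU, 3.86% in sensitive-CM and 7.16% in resistant-CM, each against HCT-8. In resistant-CM against sensitive-CM edgeR and DESeq2 each called 0, with 6 at an unadjusted p under 0.05. The leukocyte genes PTPRC and CD3E and the fibroblast gene COL1A2 were at 0 in every library, and the summed levels of 3 endothelial and 5 fibroblast markers reached at most 2.45 and 22.1 CPM. The fibroblast markers COL1A1 and PDGFRB were present, at 8.19 to 13.8 and 4.35 to 9.04 CPM. Of these 2, edgeR called 1 DE and higher in sensitive-CM against HCT-8, and DESeq2 called 0. Mean levels in sensitive-CM and HCT-8 were 7.86 and 4.57 CPM for PDGFRB, and 13.4 and 11.4 CPM for COL1A1. The leukocyte gene CD14 had 4 to 47 counts, or 0.355 to 1.51 CPM, and both HCT-8 libraries had the lowest levels. It was not DE in any comparison, with an unadjusted p of 0.047 in sensitive-CM and 0.012 in resistant-CM against HCT-8. The part of these markers in the results that follow was not tested.

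Levels are given as TMM-normalized CPM, counts relative to the library's total of genic counts, and compare a gene between libraries. Between genes, levels were divided by exonic length (RPKM). On that scale the mean over the 8 libraries was 175 RPKM for MT2A, 87.6 for MT1E, 17.2 for SLC30A1, 15.6 for MT1G, 4.94 for MT1F, 4.14 for MTF1 and 3.78 for MT1X. MT2A and MT1E were thus the main metallothionein mRNAs of these cells. MT1M had 1 count in HCT-8/FU replicate 1, 1 count in resistant-CM replicate 1 and 0 counts in the other 6 libraries. A count of 0 allows up to 3 counts, which is 0.0887 to 0.501 CPM depending on the library, so no fold is given for MT1M.

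**Figure D1:**
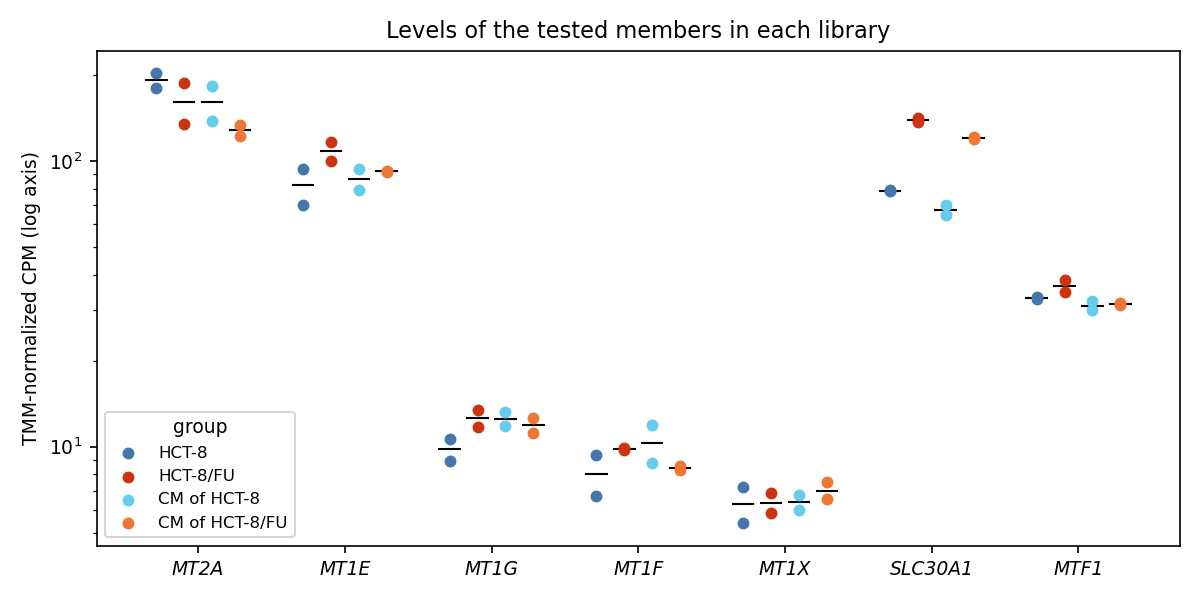
TMM-normalized CPM on a log axis for each of the 7 tested members, with 1 point per library, colored by group, and a black line at the mean of the 2 replicates. SLC30A1 is at 137 CPM or above in HCT-8/FU and at 78.9 CPM or below in HCT-8. Between these groups the points of MT2A and MT1X overlap, while those of MT1E, MT1F, MT1G and MTF1 are higher in HCT-8/FU. Such separation was not counted over all tested genes.

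SLC30A1, the zinc exporter, was counted at 78.5 and 78.9 CPM in HCT-8 replicates 1 and 2 and at 140.6 and 137.2 CPM in HCT-8/FU. It was at 70.0 and 64.5 CPM in HCT-8 cells with sensitive-CM, and at 119.2 and 120.8 CPM in those with resistant-CM. The 4 groups did not overlap, and the replicates of each group lay close together. The share of all tested genes whose groups lie apart in this way was not counted.

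The resistant line was set against HCT-8 to ask what differs in the resistant line. SLC30A1 was DE, with a log2 fold change of 0.82 ± 0.078 (SE, n = 2 per group, 95% interval 0.65 to 0.99, FDR = 1.1e-06 by edgeR's quasi-likelihood test). It was the only 1 of the 7 tested members that was DE, where 21.3% of all 20305 tested genes were DE, 13.2% were DE and higher in HCT-8/FU, and 8.12% were DE and lower. With the GC and length correction its log2 fold change was 0.42 ± 0.085 (FDR = 0.0022), which is past the FDR but under the fold threshold, so the DE call was lost. Without the 3 libraries of low alignment it was 0.83.

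In the CM comparison, the resistant-CM group was set against the sensitive-CM group to ask what medium of resistant cells changes in sensitive cells. SLC30A1 was again DE and higher, with a log2 fold change of 0.84 ± 0.077 (n = 2 per group, 95% interval 0.68 to 1.01, FDR = 2.4e-06). It was the only 1 of 7 members DE, where 9.25% of all tested genes were DE, 7.97% higher and 1.28% lower. With the GC and length correction it was 0.48 ± 0.084 (FDR = 0.0027), again past the FDR but under the fold threshold. Without the 3 libraries it was 0.90.

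The change of SLC30A1 in the resistant line and its change in CM were tested against each other. Their difference was -0.02 ± 0.11 on the log2 scale, with a 95% interval from -0.25 to 0.21 (FDR = 0.94 by edgeR's quasi-likelihood test). By edgeR and by DESeq2, 0 members passed the FDR in this test of the difference, against 11.6% of all tested genes in edgeR. At an unadjusted p of at most 0.05, MT1G was the member past it, with a difference of 0.51 ± 0.23 (unadjusted p = 0.047, FDR = 0.20). Without the 3 libraries this difference was 0.74.

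Both conditioned groups were also set against HCT-8 in unconditioned medium, and these comparisons share the HCT-8 libraries. SLC30A1 was at 0.61 ± 0.076 in resistant-CM against HCT-8 (FDR = 4.7e-05) and DE, where 10.4% of all tested genes were DE, 7.16% higher and 3.28% lower. With the GC and length correction this was 0.40 ± 0.084 (FDR = 0.0037), under the fold threshold. In sensitive-CM against HCT-8 it was at -0.23 ± 0.079 (FDR = 0.051). This was -0.08 (FDR = 0.63) with the GC and length correction, -0.29 without sensitive-CM replicate 1 and -0.29 without the 3 libraries. No member was DE there by edgeR's quasi-likelihood test, where 8.15% of all tested genes were DE, 3.86% higher and 4.29% lower. At an unadjusted p of at most 0.05, SLC30A1 and MT1G were past it, with 0.0099 and 0.032. DESeq2 with 4 groups gave 0 DE members in this comparison. The order of SLC30A1 levels was thus HCT-8/FU, resistant-CM, HCT-8 and sensitive-CM. HCT-8/FU and resistant-CM, neighbours in that order, differed by 0.21 ± 0.075 (FDR = 0.078), and HCT-8 and sensitive-CM by the values above, so with all 8 libraries only the step between resistant-CM and HCT-8 passed the FDR.

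**Figure D2:**
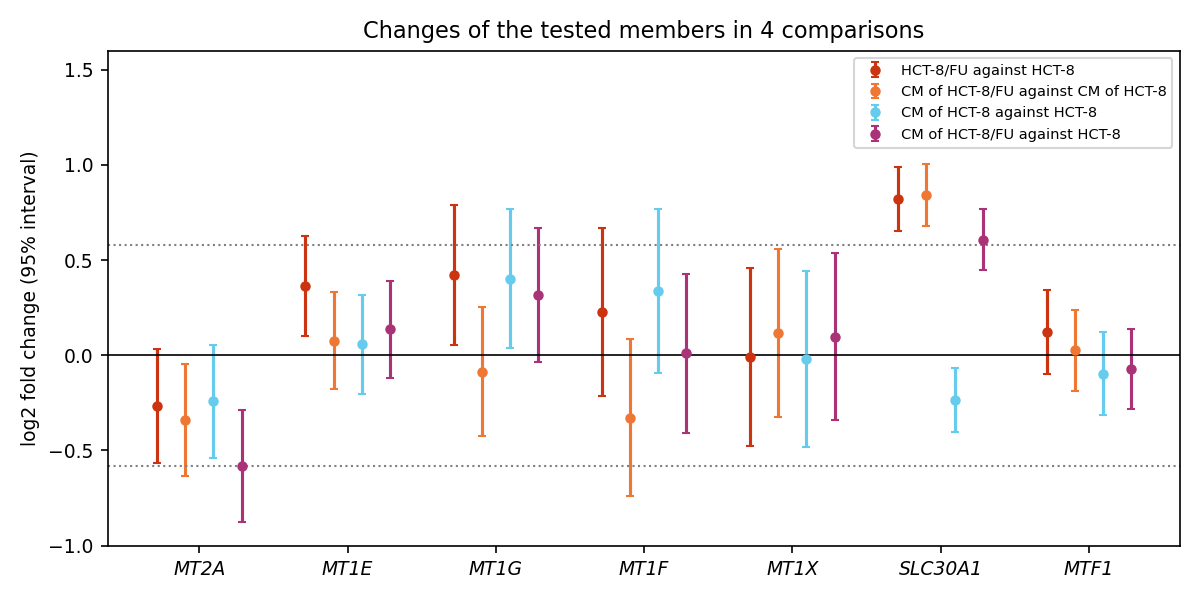
log2 fold changes of the 7 tested members in 4 comparisons, with bars for the 95% interval of edgeR's quasi-likelihood fit and dotted lines at 0.58 and -0.58. SLC30A1 lies at 0.82, 0.84 and 0.61 in the comparisons that involve HCT-8/FU cells or their CM, and the intervals of MT1X and MTF1 include 0 in all 4 comparisons.

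**Figure D3:**
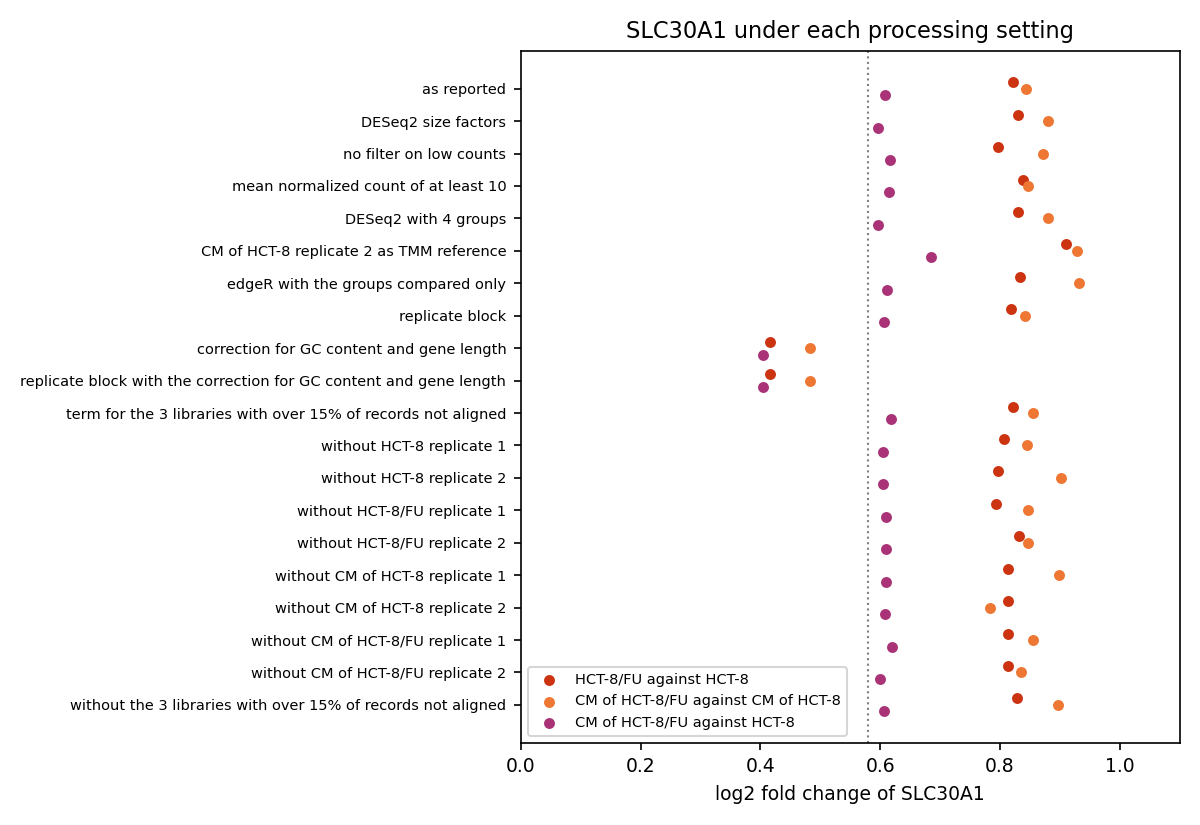
log2 fold change of SLC30A1 in 3 comparisons (horizontal axis) under each processing setting (vertical axis), with a dotted line at 0.58. Points lie at 0.60 or above except with the GC and length correction, where they lie between 0.40 and 0.48.

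MT2A, the most abundant metallothionein mRNA, was counted at 202.5 and 180.5 CPM in HCT-8 and at 134.5 and 187.5 CPM in HCT-8/FU. It was at 137.9 and 182.6 CPM with sensitive-CM and at 121.9 and 133.5 CPM with resistant-CM. The replicates of HCT-8/FU and of sensitive-CM lay far apart. Both resistant-CM libraries were below every other library, though 133.5 CPM in resistant-CM lay close to 134.5 CPM in HCT-8/FU. How many of all tested genes order in this way was not counted. Against HCT-8, resistant-CM was lower by a log2 fold change of -0.58 ± 0.14 (FDR = 0.0063), which lies just short of the fold threshold. It crossed that threshold in 7 of 19 alternative settings, among them the GC and length correction (-0.59, FDR = 0.021) and DESeq2 (-0.60, FDR = 0.033). MT2A was at -0.34 ± 0.14 in resistant-CM against sensitive-CM (FDR = 0.10), at -0.27 ± 0.14 in HCT-8/FU against HCT-8 (FDR = 0.16) and at -0.24 ± 0.14 in sensitive-CM against HCT-8 (FDR = 0.27). These values moved when single libraries were left out. In HCT-8/FU against HCT-8 they ran from -0.51 (without HCT-8/FU replicate 2) to -0.034, and without the 3 libraries of low alignment MT2A was at -0.43. In resistant-CM against sensitive-CM they ran from -0.52 (without sensitive-CM replicate 1) to -0.11, and without the 3 libraries MT2A was at -0.52. Both stayed under the fold threshold. In sensitive-CM against HCT-8 it was at -0.47 without sensitive-CM replicate 2 and at 0.018 without the 3 libraries. The change in resistant-CM against HCT-8 was -0.50 without HCT-8 replicate 1 and -0.52 without resistant-CM replicate 1, further short of the fold threshold. It was -0.67 without HCT-8 replicate 2, past that threshold. Leaving out 1 library leaves a single library in its group, so for MT2A only sizes of change are given from such fits.

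MT1E, the second most abundant, was counted at 70.3 and 93.99 CPM in HCT-8 and at 100.1 and 116.8 CPM in HCT-8/FU. It was at 79.3 and 93.4 CPM with sensitive-CM and at 91.9 and 91.7 CPM with resistant-CM. Both HCT-8/FU libraries were above all 6 others, an ordering that was not counted over all tested genes. The log2 fold change of HCT-8/FU against HCT-8 was 0.36 ± 0.12 (FDR = 0.030), past the FDR but under the fold threshold. With the GC and length correction it was 0.59 (FDR = 0.0027), and MT1E was then the DE member of this comparison in place of SLC30A1. Without HCT-8 replicate 2 it was 0.59. It was 0.18 without HCT-8 replicate 1, 0.26 without HCT-8/FU replicate 2 and 0.09 without the 3 libraries of low alignment. MT1E was at 0.08 ± 0.12 in resistant-CM against sensitive-CM (FDR = 0.71).

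MT1G was counted at 10.7 and 8.90 CPM in HCT-8, 13.5 and 11.7 CPM in HCT-8/FU, 11.9 and 13.2 CPM with sensitive-CM, and 12.6 and 11.2 CPM with resistant-CM. All 6 libraries of the other groups were above both HCT-8 libraries, which was not counted over all tested genes either. Against HCT-8 its log2 fold change was 0.42 ± 0.17 in HCT-8/FU (FDR = 0.069) and 0.40 ± 0.17 in sensitive-CM (FDR = 0.12). With the GC and length correction these were 0.55 ± 0.18 (FDR = 0.031), past the FDR but under the fold threshold, and 0.30 ± 0.17 (FDR = 0.31). Without the 3 libraries the change in HCT-8/FU was 0.59 and that in sensitive-CM was 0.57.

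MT1F was counted at 6.71 and 9.37 CPM in HCT-8, 9.87 and 9.69 CPM in HCT-8/FU, 8.75 and 11.9 with sensitive-CM, and 8.31 and 8.56 with resistant-CM. Its log2 fold change was 0.23 ± 0.21 in HCT-8/FU against HCT-8 (FDR = 0.44) and -0.33 ± 0.19 in resistant-CM against sensitive-CM (FDR = 0.27). The latter ran from -0.50 to -0.048 when single libraries were left out, and without the 3 libraries of low alignment it was -0.50. MT1X was counted at 5.40 and 7.24 CPM in HCT-8, 6.88 and 5.85 CPM in HCT-8/FU, 5.98 and 6.78 with sensitive-CM, and 6.54 and 7.49 with resistant-CM. Its groups overlapped in all of these comparisons. Its log2 fold change was -0.01 ± 0.22 in HCT-8/FU against HCT-8 (95% interval -0.47 to 0.46) and 0.12 ± 0.21 in the CM comparison (95% interval -0.32 to 0.56). Changes within these intervals were compatible with the data, so a change of up to about these bounds was not excluded. The lowest MT1X count was 35, at which counting alone gives a relative error of 16.9%, against 2.99% at the lowest MT2A count of 1122. In addition, 321 exonic bases of MT1X, 18.6% of its exons, lie in an overlapping lncRNA on the same strand, so reads there may not have been assigned to MT1X. No stretch of 100 bases of the other members' transcripts occurred in a transcript of another gene, although shorter similar stretches are common among metallothioneins.

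MTF1, the zinc sensor, was counted between 30.1 and 38.3 CPM in all 8 libraries. It was at 32.8 and 33.4 CPM in HCT-8, 34.6 and 38.3 CPM in HCT-8/FU, 32.2 and 30.1 with sensitive-CM, and 31.8 and 31.3 with resistant-CM. The log2 fold change was 0.12 ± 0.10 in HCT-8/FU against HCT-8 (95% interval -0.10 to 0.34, FDR = 0.40) and 0.03 ± 0.099 in the CM comparison (95% interval -0.19 to 0.24, FDR = 0.89). Both intervals stay inside the fold threshold.

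Ordered by group mean, MT2A was highest in HCT-8 and lowest in resistant-CM, while MT1E, MT1G and MTF1 were highest in HCT-8/FU, MT1F in sensitive-CM and MT1X in resistant-CM. With all 8 libraries no step of these 6 genes between neighbouring groups in the order passed the FDR, and the lowest FDR of such a step was 0.10, for MT2A between sensitive-CM and resistant-CM. Over the 7 tested members the median log2 fold change was 0.23 in HCT-8/FU against HCT-8 and 0.03 in resistant-CM against sensitive-CM, beside 0.0082 and -0.06 over all tested genes.

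The metallothionein mRNAs summed to 295.6 and 300.0 CPM in HCT-8 and to 264.8 and 331.6 CPM in HCT-8/FU. They summed to 243.8 and 307.9 CPM with sensitive-CM and to 241.2 and 252.4 CPM with resistant-CM. HCT-8 had a mean of 298 ± 3.14 CPM (SD, n = 2), HCT-8/FU of 298 ± 47.2, sensitive-CM of 276 ± 45.3 and resistant-CM of 247 ± 7.88. MT2A made up 68.5% and 60.2% of the sum in the HCT-8 libraries, whereas HCT-8/FU had shares of 50.8% and 56.6%. These were 56.6% and 59.3% with sensitive-CM, and 50.5% and 52.9% with resistant-CM. MT1E made up 23.8% to 38.1%. The share of MT2A was thus higher in both HCT-8 libraries than in the other 6, and it was lowest in resistant-CM replicate 1. These shares describe single libraries and were not tested.

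**Figure D4:**
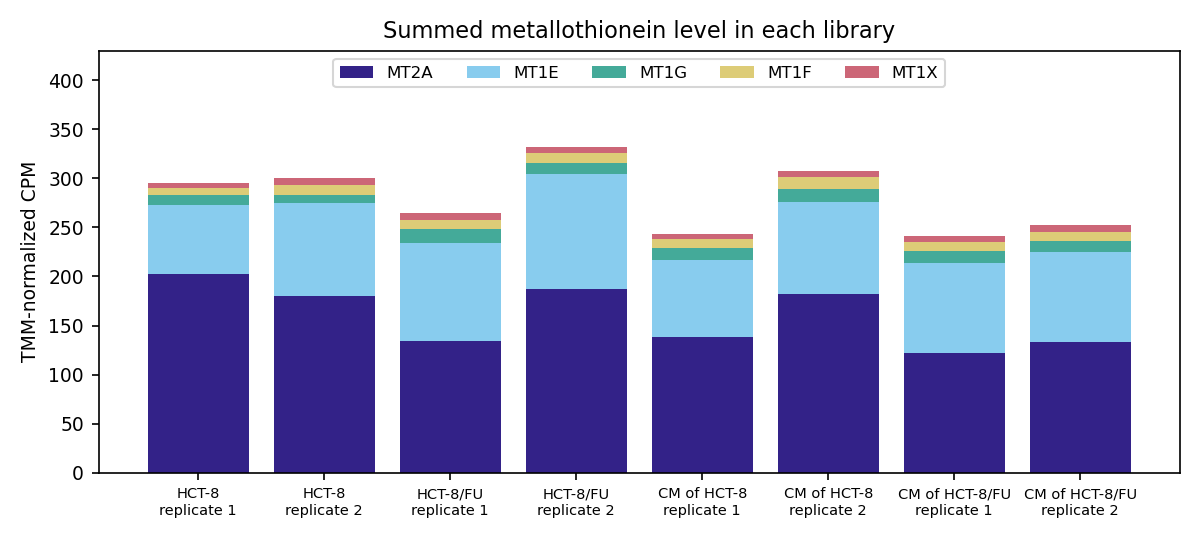
Stacked bars of the TMM-normalized CPM of the 5 tested metallothioneins in each of the 8 libraries. Bars reach 241 to 332 CPM, and MT2A and MT1E make up most of each.

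The 5 protein-coding genes whose levels followed the metallothionein sum most closely over the 8 libraries, among 10866 with a mean of at least 5 CPM, were APOBEC3B, SDHD, INSR, SHCBP1 and HRH1. Their Pearson r with the log2 sum was 0.945, 0.941, 0.939, 0.923 and 0.913. All 8 points share depth and group structure, and the ranking is a description only. Over the same libraries SLC30A1 had an r of 0.62 with MT1E, 0.58 with MTF1 and -0.42 with MT2A. With MT1G, MT1X and MT1F its r was 0.27, 0.17 and -0.05.

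The rest of the metallothionein family was nearly silent. Of 15 other loci, which include MT1A, MT1B, MT1H, MT3, MT4 and pseudogenes, 6 were at 0 in every library and none had more than 16 counts in any library. MT1P3, a pseudogene, was the only 1 tested and its log2 fold change of -0.27 ± 1.1 in HCT-8/FU against HCT-8 did not pass the FDR.

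Among the other zinc exporters of the SLC30 family, which genes were DE depended on the GC and length correction. Of 7 tested, 1 was DE and higher in HCT-8/FU against HCT-8 and 0 were lower, where 13.2% and 8.12% of all tested genes were. This was SLC30A4, which loads zinc into vesicles, at 1.03 ± 0.20 (FDR = 0.00077). In resistant-CM against sensitive-CM, SLC30A4 was at 0.90 ± 0.19 (FDR = 0.0038) and SLC30A7, which moves zinc into the Golgi, at 0.65 ± 0.095 (FDR = 0.00018), so that 2 were higher and 0 lower, beside 7.97% and 1.28% of all tested genes. Without sensitive-CM replicate 2, SLC30A7 was at 0.53 (FDR = 0.0013), under the fold threshold. These 3 calls were lost with the GC and length correction, where SLC30A4 was at 0.577 (FDR = 0.045) and 0.48 (FDR = 0.15), and SLC30A7 was at -0.04 (FDR = 0.86). With the correction, 2 other exporters were instead DE and lower in HCT-8/FU against HCT-8, where 1615 of 20305 tested genes were. They were SLC30A5, which moves zinc into the secretory pathway, at -0.86 (FDR = 4.2e-05, against -0.30 without the correction) and SLC30A7 at -0.64 (FDR = 0.00021, against 0.05). In sensitive-CM against HCT-8, 2 were lower and 0 higher, beside 4.29% and 3.86% of all tested genes, SLC30A7 at -0.84 ± 0.098 and SLC30A10, a manganese exporter, at -0.75 ± 0.24, and with the correction neither met the threshold (-0.52, FDR = 0.0035, and -0.63, FDR = 0.11). The call of SLC30A10 was also lost without any single library of HCT-8, sensitive-CM or resistant-CM (FDR from 0.058 to 0.14). In resistant-CM against HCT-8, SLC30A4 was the only DE exporter of this list, at 0.79 ± 0.19, where 7.16% of all tested genes were DE and higher and 3.28% were DE and lower. With the correction it was at 0.56 (FDR = 0.052), and SLC30A5 was the DE exporter in its place, at -0.61 (FDR = 0.00091), where 972 of 20305 tested genes were DE and lower. SLC30A4 also missed the FDR there without resistant-CM replicate 1 (FDR = 0.069) or 2 (FDR = 0.056).

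Zinc importers of the SLC39 family went both ways. Of 12 tested, 2 were DE and higher and 2 were DE and lower in HCT-8/FU against HCT-8, beside 13.2% and 8.12% of all tested genes. SLC39A10, a plasma membrane importer, was at 1.67 ± 0.13 (FDR = 1.4e-07), and SLC39A8, which also carries manganese and cadmium, at 0.61 ± 0.21 (FDR = 0.033). SLC39A7, which releases zinc from the endoplasmic reticulum, was at -1.09 ± 0.069 (FDR = 3.1e-08), and SLC39A14, an importer of zinc, iron and manganese, at -1.02 ± 0.068 (FDR = 5.6e-08). With the GC and length correction SLC39A10, SLC39A7 and SLC39A14 kept their DE calls (1.16, -0.93 and -0.98), and SLC39A8 lost its call (0.37, FDR = 0.23). SLC39A8 also lost it without HCT-8 replicate 2 (0.34, FDR = 0.39), without HCT-8/FU replicate 1 or 2 (FDR = 0.089 and 0.11) and without resistant-CM replicate 1 or 2 (FDR = 0.062 and 0.061). In the CM comparison, where 9.25% of all tested genes were DE, SLC39A10 was the 1 importer that was DE, at 0.94 ± 0.12 (FDR = 4.9e-05), and with the correction it was at 0.46 (FDR = 0.024). Of the 12, edgeR and DESeq2 each called 0 in sensitive-CM against HCT-8, and 4 had an unadjusted p under 0.05 in edgeR. In resistant-CM against HCT-8, SLC39A10 was higher (1.22 ± 0.12), and SLC39A7 (-0.65 ± 0.067) and SLC39A14 (-0.63 ± 0.068) were lower, beside 7.16% and 3.28% of all tested genes. These 3 calls were kept with the correction, while with sensitive-CM replicate 2 as TMM reference SLC39A7 (-0.574) and SLC39A14 (-0.552) fell short of the fold threshold.

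**Figure D5:**
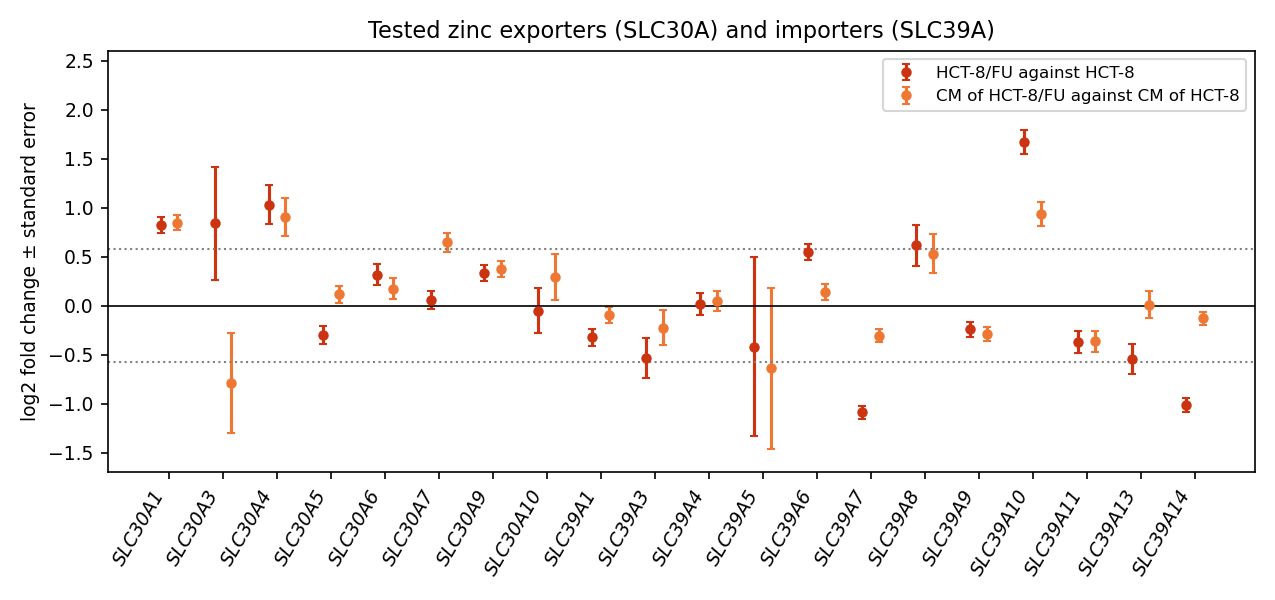
log2 fold change ± SE of SLC30A1, the 7 other tested SLC30 exporters and the 12 tested SLC39 importers in HCT-8/FU against HCT-8 and in resistant-CM against sensitive-CM, with dotted lines at 0.58 and -0.58. SLC30A1, SLC30A4 and SLC39A10 lie above the upper line in both comparisons, and SLC39A7 and SLC39A14 lie below the lower line in HCT-8/FU against HCT-8.

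Metallothioneins also bind copper, and 9 genes of copper handling were tested. In HCT-8/FU against HCT-8, 1 was DE and higher and 1 DE and lower, where 21.3% of all tested genes were DE. ATP7A, the copper-exporting ATPase, was at 1.26 ± 0.13 and SLC31A1, the main copper importer, at -1.45 ± 0.090. In the CM comparison ATP7A alone was DE, at 0.91 ± 0.13, beside 9.25% of all tested genes, but it was at 0.12 (FDR = 0.64) with the GC and length correction, and it lost its call in HCT-8/FU against HCT-8 too (0.56, FDR = 0.0056). SLC31A1 was DE and lower in sensitive-CM against HCT-8 (-1.09 ± 0.087) as well as in resistant-CM against HCT-8 (-1.23 ± 0.086), beside 4.29% and 3.28% of all tested genes. It kept both calls with the correction. In resistant-CM against HCT-8, ATP7A was the 1 copper gene that was DE and higher (0.83 ± 0.12), beside 7.16% of all tested genes. This call was lost with the correction (0.46, FDR = 0.021).

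Of 10 tested genes of the metal and oxidant stress response, 0 were DE and higher and 5 were DE and lower in HCT-8/FU against HCT-8, where 13.2% and 8.12% of all tested genes were. HMOX1, the heme-degrading enzyme induced by cadmium and oxidants, was at -2.01 ± 0.12 (FDR = 2.7e-08), and the heat shock cochaperone DNAJB1 at -1.04 ± 0.099. Among the 5 are HSPA1A and HSPA1B, which are near-identical copies, so that their separate counts are uncertain. After the GC and length correction 6 were DE and lower, 4 of them among the 5, where 1615 of 20305 tested genes were DE and lower. HSPA1B lost its call (-0.55), and it was gained by GCLC, the catalytic subunit of the first enzyme of glutathione synthesis (-0.66), and by the quinone reductase NQO1 (-0.58). In the CM comparison 2 were higher and 0 lower, beside 7.97% and 1.28% of all tested genes, namely SLC7A11, the cystine importer, at 1.14 ± 0.12 and GCLM, the partner subunit of GCLC, at 0.81 ± 0.10, and neither was DE with the GC and length correction (0.40 and 0.33). In sensitive-CM against HCT-8, 1 was higher (SRXN1, a peroxiredoxin repair enzyme, 1.39 ± 0.36) and 4 were lower, led by SLC7A11 (-1.23 ± 0.12) and HMOX1 (-1.004 ± 0.11), beside 3.86% and 4.29% of all tested genes. SRXN1 lost this call without HCT-8 replicate 2 (0.60, FDR = 0.41) and with DESeq2 (1.23, FDR = 0.094). In resistant-CM against HCT-8, 1 was higher (SRXN1, 2.05 ± 0.34) and 5 were lower, led by HMOX1 (-1.11 ± 0.11) and DNAJB1 (-0.77 ± 0.095), beside 7.16% and 3.28% of all tested genes.

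Glucocorticoids are also known to induce metallothioneins. Of 5 tested glucocorticoid-induced genes, FKBP5 was DE and higher in HCT-8/FU against HCT-8 (0.75 ± 0.11, with the correction 0.40, FDR = 0.022) and 3 were DE and lower, led by TSC22D3 (-1.07 ± 0.11) and DUSP1 (-0.88 ± 0.20), beside 13.2% and 8.12% of all tested genes. Without HCT-8/FU replicate 1, DUSP1 was at -0.71 (FDR = 0.084). By edgeR 0 were DE in the CM comparison and 0 in sensitive-CM against HCT-8, with 2 and 3 at an unadjusted p under 0.05, where DESeq2 called 0 and 1. TSC22D3 alone was DE and lower in resistant-CM against HCT-8 (-0.64 ± 0.11), where 3.28% of all tested genes were, and with sensitive-CM replicate 2 as TMM reference it was at -0.57, short of the fold threshold.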

How the data were processed

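RNA was measured by mRNA-seq in 8 libraries, with groups and replicate numbers read from the sample titles. The authors mapped reads to GRCh38 using HISAT2, and HTSeq 0.11.2 gave the counts per gene. The deposited values are these raw counts. The sources used here do not give the strand setting of the counting. The authors' DESeq2 1.30.0 tables, which hold their own fold changes and p-values, were not used. Lines that name no gene (59.2% to 70.3% of records) were left out of library sizes and tests.

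The tests used edgeR 4.0.16 in R 4.3.3. The design fits 4 group means to all 8 libraries with TMM scaling and filterByExpr, which kept 20305 genes. The FDR is the Benjamini-Hochberg value over all of these, from the quasi-likelihood test of edgeR. SEs were obtained from the fold change and its F statistic. Alternatives were DESeq2 1.42.0 and its size factors, other filters, another TMM reference, fits restricted to compared groups, a replicate block, splines that remove the trend on GC content and length (with or without the block), a covariate that marks the 3 libraries of low alignment (over 15% not aligned), the FDR without the fold threshold, and leaving out each library. Leaving out those 3 libraries together was added after seeing the data. The spline correction also removes true changes that happen to track GC or length. The fits were tested on simulated data.

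Names, positions and GC content came from GENCODE 44, in which 56105 of 64253 identifiers were found, and promoters from RefSeq. The members, the gene lists and the tests were chosen with earlier results of these data known. All members are named, and from each other list up to 2 DE genes per direction and comparison with the largest change, plus the 5 protein-coding genes with the highest Pearson r. Genes named beyond this rule (SLC30A5, SLC39A6, GCLC, NQO1, TXNRD1, HSPA1A, HSPA1B, PER1, KLF9 and the cell type markers) were chosen after their values were seen. Median chi-square between replicates was 1.02 to 2.30 (0.455 from sampling alone), so no library was a copy. Intervals, and the limit set by a count of 0, cover these libraries and counting error only. Columns of values left unused numbered 0.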

Additional observations from a re-analysis of the deposited data

Results flagged for a closer look

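No tested metallothionein, SLC30A1 or MTF1 passed the FDR in edgeR's quasi-likelihood test of the difference between the change in the resistant line and that in conditioned medium. With 2 libraries per group this does not show that the changes were equal. The largest difference among the members was 0.56 ± 0.28 for MT1F (95% interval -0.05 to 1.16, FDR = 0.25). Of 43 tested genes in the 5 lists of related genes, 20 passed the FDR in this test, beside 11.6% of all tested genes. The value is the log2 fold change of HCT-8/FU against HCT-8 minus that of resistant-CM against sensitive-CM. Among zinc and copper transporters it was 0.73 for SLC39A10, 0.41 for SLC39A6, -0.42 for SLC30A5, -0.59 for SLC30A7, -0.78 for SLC39A7, -0.89 for SLC39A14 and -1.30 for SLC31A1. Among metal and oxidant stress genes, 8 of 10 passed, all with a value below 0. These were -1.90 for HMOX1, -0.97 for HSPA1A, -0.90 for SLC7A11, -0.62 for GCLM, -0.62 for DNAJB1, -0.59 for GCLC, -0.56 for TXNRD1 and -0.42 for HSPA1B. Among glucocorticoid-induced genes, 5 of 5 passed, at 0.73 for FKBP5, -0.60 for KLF9, -0.68 for TSC22D3, -0.70 for PER1 and -0.92 for DUSP1. With the GC and length correction 15 of the 20 still passed, beside 1667 of 20305 tested genes, and SLC30A5, SLC39A6, HSPA1B, DNAJB1 and DUSP1 did not. All groups hold 2 libraries, so single libraries were not tested for standing apart.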

How the results depend on the processing

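Groups of 2 libraries and lowest counts of 35 to 70 limit what MT1X, MT1F and MT1G could show. SLC30A1 stayed higher in all 19 alternatives of its 3 called comparisons, but with the GC and length correction, with or without the replicate block, it fell short of the fold threshold. The DE members of resistant-CM against sensitive-CM then numbered 0. In the other 2 comparisons the number stayed at 1 under that correction only because another member was called, MT1E in HCT-8/FU against HCT-8 and MT2A in resistant-CM against HCT-8. In HCT-8/FU against HCT-8, MT1E was at 0.59 without HCT-8 replicate 2, past the fold threshold. SLC30A1 was there at 0.79 or above when single libraries were left out. For HCT-8/FU against HCT-8 there were 2 DE members, SLC30A1 and MT1E, with the FDR alone. For resistant-CM against HCT-8 there were 2, SLC30A1 and MT2A, with DESeq2's size factors, with DESeq2, with the replicate block and with the FDR alone, and 1 to 2 when single libraries were left out (2 without HCT-8 replicate 2 or without resistant-CM replicate 2). In the difference, MT1G was at 0.74 without the 3 libraries. The order of group levels was as given for 7 members, for 3 of them with sensitive-CM replicate 2 as TMM reference, and for 2 to 7 when single libraries were left out, of which sensitive-CM replicates 1 and 2 (4 and 2) and HCT-8 replicate 1 (2) changed it most. Correlations of same-numbered deviations from the group means ran from -0.145 to 0.193. Libraries of low alignment have different replicate numbers in different groups, so these correlations cannot decide whether the replicate numbers pair the samples. The block changed no call but that of MT2A. The cause of these changes was not tested.

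Signs changed under some alternatives, in each case but SLC30A7 for a gene that was not DE. For MT1X in HCT-8/FU against HCT-8 (-0.0072) the log2 fold change was 0.085 with the other TMM reference, 0.0036 with DESeq2's size factors, 0.0072 with DESeq2, 0.12 with the GC and length correction, 0.0084 without the other groups in the fit, 0.012 with a mean count of at least 10, 0.043 with the replicate block, 0.16 with the block and the correction, and -0.17 to 0.24 when single libraries were left out. Without the 3 libraries of low alignment, MT1E was at -0.0076 in sensitive-CM against HCT-8, -0.026 in resistant-CM against sensitive-CM and -0.033 in resistant-CM against HCT-8, where MT1F was at -0.15 and MT1X at -0.045. Without them MT2A was at 0.018 in sensitive-CM against HCT-8, and MTF1 at -0.020 in the difference. With the correction, and with the block and the correction, MT1E was at -0.084 and -0.077 in sensitive-CM against HCT-8, and in the CM comparison MT1G was at 0.028 and 0.013, MTF1 at -0.011 and -0.012, and SLC30A7 at -0.038 and -0.040. In resistant-CM against HCT-8, MT1F was at -0.0077 when other groups were left out of the fit and -0.10 with a covariate for the 3 libraries, where MT1X was at -0.0020, and MTF1 was at 0.0059 with the other TMM reference. When single libraries were left out, values in the CM comparison ran from -0.025 to 0.22 for MT1E, -0.17 to 0.010 for MT1G and -0.026 to 0.086 for MTF1. In sensitive-CM against HCT-8 they ran from -0.12 to 0.24 for MT1E and -0.17 to 0.19 for MT1X. In resistant-CM against HCT-8 they ran from -0.035 to 0.38 for MT1E, -0.15 to 0.32 for MT1F and -0.046 to 0.37 for MT1X. In the difference they ran from -0.30 to 0.063 for MT1X, -0.18 to 0.30 for MT2A and -0.10 to 0.030 for SLC30A1.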
